A study of Mus musculus with 2 samples.

Results

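The genes described here are 8 genes for proteins with which mucosal surfaces hold bacteria at a distance. They are the secreted C-type lectins Reg3g, Reg3b and Reg3a, the galectin Lgals4, the flagella-binding protein Lypd8, the peptidoglycan-binding protein Pglyrp1, the antibody transporter Pigr and the iron-binding protein Ltf (lactoferrin). They were chosen by name, with earlier results of these data known. Each of the 8 symbols matched 1 of the 55487 genes in the count table. In the gut, epithelial cells make most of these proteins: some kill bacteria, some keep bacteria away from the epithelium, and Pigr carries polymeric IgA and IgM from the tissue to the lumen. In the thymus, medullary thymic epithelial cells (mTEC) include mimetic cells, which make proteins of gut, skin, airway and other tissues and so show them to developing T cells. Hnf4a and Hnf4g encode related nuclear receptors known as activators of gut and liver genes.

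RNA was counted in single mTEClo cells of C57BL/6 mice, sorted as negative for Pdpn and CD104. All samples shared 1 droplet run with 10x 3' v3.1 chemistry, which reads the 3' ends of transcripts, and an antibody tag against H2-Kb (a hash tag) marked the sample of each cell. The 4 Hnf4dTEC samples were Foxn1(cre/+) Hnf4a(fl/fl) Hnf4g(-/-), and the 3 Hnf4ctrl samples were Foxn1(cre/+) Hnf4a(fl/+) Hnf4g(+/-). The labels list both genotypes without tying each to a group name, and the names were taken to mean that Hnf4dTEC is the one with both genes lost. The Hnf4ctrl samples were thus not wild type, since they also carried the Cre driver, a floxed copy of Hnf4a and a null copy of Hnf4g. The Foxn1 driver gives Cre in thymic epithelium, whereas the null copies of Hnf4g are present in every cell. Age and sex were not given in the sources used here. Nothing in the labels states that the samples came from different animals. The p-values therefore measure only the spread between these samples, which may be technical.

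The cell table of the authors gave 5890 Hnf4dTEC cells and 3295 Hnf4ctrl cells a sample and 1 of 15 classes. Each sample held 801 to 1652 cells and 10127838 to 25821970 UMIs (a UMI marks 1 captured RNA molecule), with a median of 11528 to 15053 UMIs per cell. CPM means UMIs of a gene per 1000000 UMIs of that sample, or of that sample and class. Of 7 classes with marker lists, each had its own list at its highest summed level in its own class. Hnf4g had 88.4, 79.8, 86.1 and 78.1 CPM in Hnf4dTEC samples, against 122, 117 and 116 CPM in Hnf4ctrl samples, and the groups did not overlap. Hnf4a had 1.74, 0.673, 1.55 and 2.27 CPM in Hnf4dTEC samples, against 1.68, 2.85 and 3.18 CPM in Hnf4ctrl samples, and the groups overlapped. Reads of 3' ends can lie outside the deleted parts of both genes, so these levels do not check the deletions.

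Over all cells, Reg3g, Pglyrp1, Lypd8 and Lgals4 stood lower in every Hnf4dTEC sample than in any Hnf4ctrl sample, by a factor of about 2 for Reg3g and Pglyrp1. No gene of the 8 passed the threshold there. Reg3b, Reg3a, Pigr and Ltf had overlapping groups. How many of all genes had groups apart was not counted, so this split describes each gene and not the set. A level over all cells mixes the number of cells of a type with the RNA per cell, and the 2 cannot be told apart in such sums. With edgeR's quasi-likelihood test, 0 of the 8 genes had an adjusted p under 0.05, where 0.184% of the 21187 genes tested did (39 genes, 38 of them lower in Hnf4dTEC). An unadjusted p under 0.05 was reached by 5 of the 8, and by 1408 of the 21187 genes tested. DESeq2 gave an adjusted p under 0.05 to 4 of the 8, all lower, where it called 0.498% of 37956 genes lower. That base counts every gene with any UMI, also genes that DESeq2 may have given no adjusted p. The same holds for all DESeq2 shares below, so they cannot be set against those of edgeR. The median log2 fold change of the 8 genes (Hnf4dTEC over Hnf4ctrl) was -0.72, against 0.00 for all genes tested, and 6 of the 8 were negative. How many of all genes were negative was not counted. Since the 8 were chosen with earlier results of these data known, neither value supports anything about the set.

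**Figure D1:**
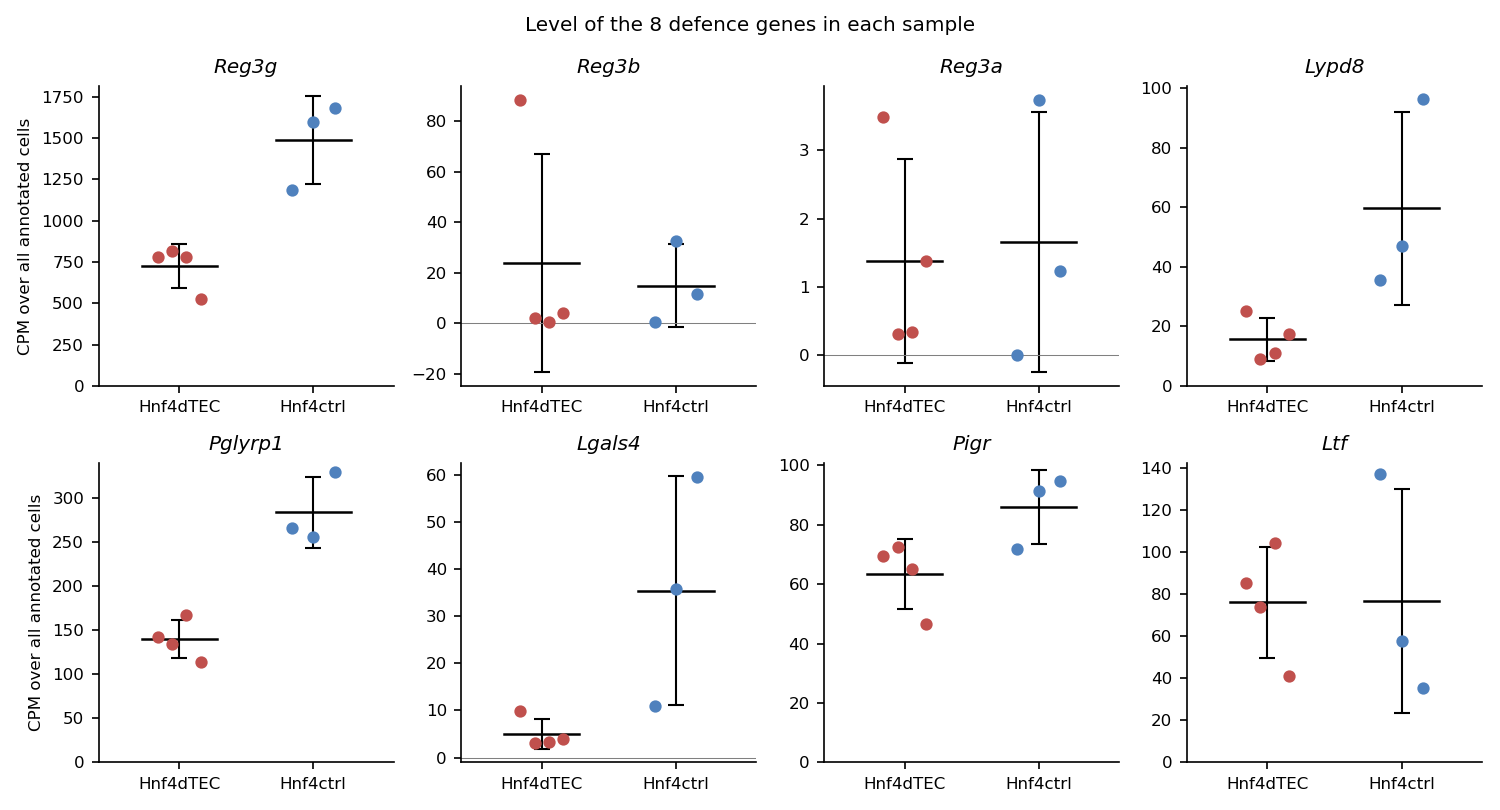
Level of the 8 genes over all annotated cells, in CPM, with 1 point per sample, Hnf4dTEC samples on the left and Hnf4ctrl samples on the right of each panel, and the mean with its SD (n = 4 and n = 3). Reg3g, Pglyrp1, Lypd8 and Lgals4 show groups that do not overlap, and Reg3b shows 1 Hnf4dTEC sample at 88.4 CPM above the other 6.

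Within classes, UMIs were summed per sample and class, and 11 of the 15 classes had at least 3 samples of each genotype with at least 10 cells. In those fits 6 pairs of a gene and a class passed the threshold, and they lay in Microfold, Neuroendocrine and Secretory cells. In Microfold cells, named for the antigen-sampling cells over gut lymphoid tissue, 3 of the 4 genes tested fell: Reg3g, Pglyrp1 and Lypd8. Of all 4656 genes tested there, 2.34% fell (3.03% passed in either direction). In Neuroendocrine cells 2 of the 5 genes tested fell, Lgals4 and Lypd8, where 0.336% of 11297 genes did (0.389% in either direction). In Secretory cells, a class with airway-like secretory markers, 1 of the 6 genes tested fell, Lgals4, where 0.0314% of 9556 genes did, which is 3 genes. No gene of the 8 passed in the other 8 classes, and none rose in any class. Of all genes 0.0799% passed in Keratinocyte cells and 0.0881% in Tuft cells, and none did in the other 6. The genes tested in a class are those that passed the filter on low counts there. For 3 of the 6 pairs, Lypd8 in Microfold cells and Lgals4 in Neuroendocrine and in Secretory cells, only Hnf4ctrl samples reached the level the filter asks for (34.2, 7.6 and 11.4 CPM). Those pairs could be tested only because they were higher in Hnf4ctrl, so neither their direction nor the count of 6 supports anything. In the other 3 pairs, Reg3g and Pglyrp1 in Microfold and Lypd8 in Neuroendocrine cells, every sample of both genotypes reached it.

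The genotype effect in a class was also set against that in all other cells of the same samples. In Microfold cells this difference passed the threshold for 4 of the 8 genes, where 1.35% of 16812 genes did (0.791% in the direction lower in Hnf4dTEC and 0.559% in the direction higher). It was negative for Reg3g, Pglyrp1 and Lgals4 and positive for Ltf. In Immature cells it passed for Lgals4 in the direction higher, where 0.0856% of 17519 genes did (0.223% in either direction). In the other 9 classes it passed for none of the 8, which does not show that the effects there were alike. Of all genes it passed there for 0.0393% in Neuroendocrine, 0.0154% in Tuft, 0.00577% in Secretory, 0.00573% in Transitional, 0.00572% in Keratinocyte and 0.00557% in Aire-adjacent cells, and for none in the other 3.

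**Figure D2:**
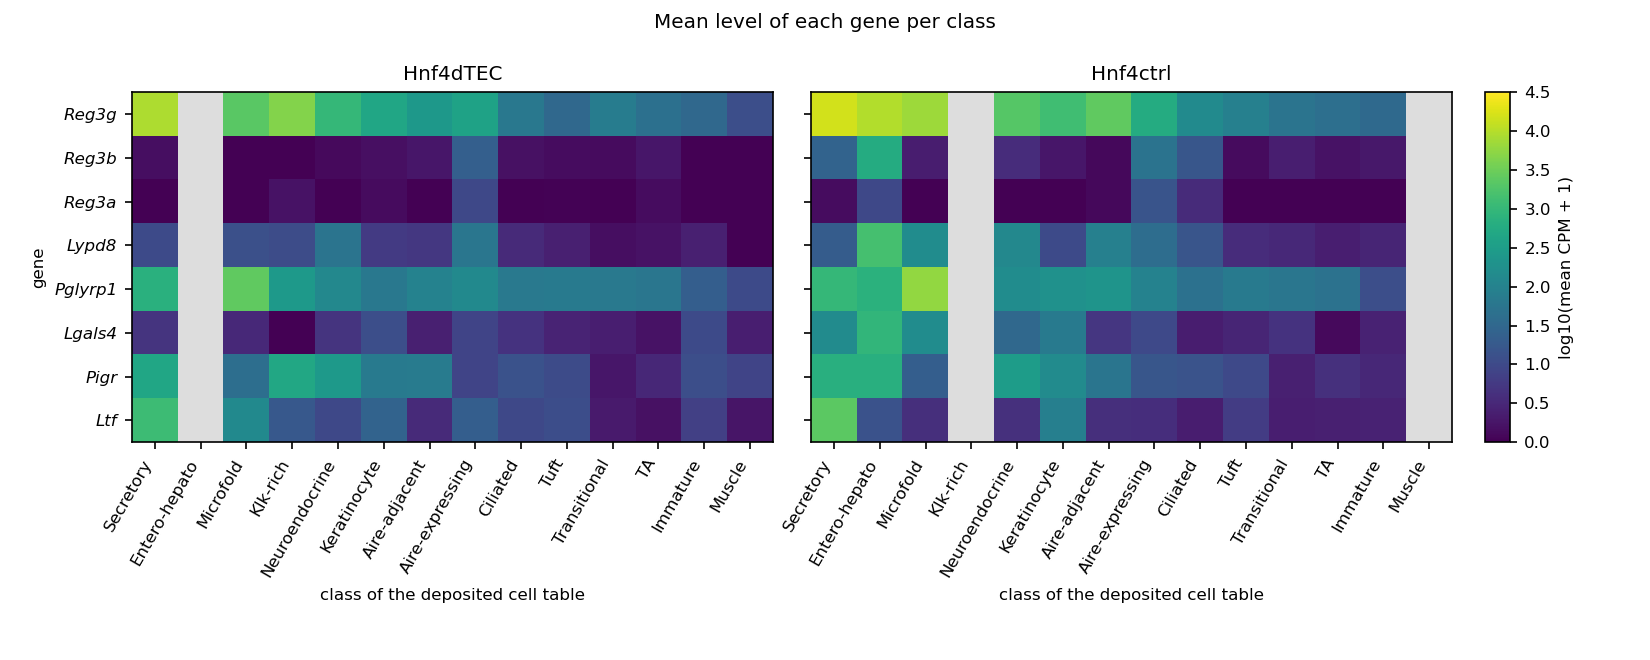
Mean level of each gene per class over samples with at least 10 cells, as log10(mean CPM + 1), for Hnf4dTEC on the left and Hnf4ctrl on the right. Grey marks a class with fewer than 2 such samples, and Reg3g and Ltf are at their highest in Secretory cells of both genotypes.

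Reg3g, which in mouse gut binds peptidoglycan and kills Gram-positive bacteria, was at its highest in Secretory cells. It had 9996, 9924, 8820.2 and 6435 CPM in Secretory cells of Hnf4dTEC samples, against 10479.9, 14814 and 20796 CPM in those of Hnf4ctrl samples. All Hnf4dTEC samples were below all Hnf4ctrl samples, with the lowest Hnf4ctrl sample close to the highest Hnf4dTEC one. The log2 fold change of -0.81 ± 0.23 (SE) did not pass the threshold (edgeR adjusted p = 0.456). A UMI of Reg3g was found in 57.4% of Hnf4dTEC and 70.1% of Hnf4ctrl Secretory cells thinned to 5000 UMIs each. In Hnf4dTEC the next classes were Klk-rich at 4619 ± 1594 CPM (SD, n = 4) and Microfold at 2245 ± 524 CPM (n = 3). In Hnf4ctrl they were Entero-hepato at 9676 ± 3283 CPM (n = 2) and Microfold at 6969 ± 3162 CPM (n = 3), among classes with at least 2 samples of 10 or more cells. Klk-rich cells of Hnf4ctrl had 1 such sample, at 12309 CPM, and are not in that order. The sample ranges of Secretory cells and of the class next to them overlapped in both genotypes, so the order of those 2 classes is not fixed by these samples.

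In Microfold cells Reg3g had 2122, 1794 and 2820.4 CPM in Hnf4dTEC samples 1 to 3, against 5210, 10619.7 and 5078 CPM in Hnf4ctrl samples. The Hnf4ctrl samples were all well above the Hnf4dTEC samples. Hnf4dTEC sample 4 had only 8 Microfold cells, with 193 CPM, and did not enter the fit. Reg3g fell by 1.66 on the log2 scale (SE 0.30, edgeR adjusted p = 0.0198). The call was lost without Hnf4dTEC sample 1 (adjusted p = 0.104) and without Hnf4dTEC sample 2 (0.0663), and when samples with at least 5 cells entered (0.0752). The fall exceeded that in all other cells by 0.85 (log2 difference -0.85 ± 0.23, adjusted p = 0.0421), which was lost with RLE in place of TMM scaling (0.0733) and without Hnf4ctrl sample 2 (0.604), Hnf4dTEC sample 1 (0.0831) or Hnf4dTEC sample 2 (0.343). With each cell thinned to 5000 UMIs, 55.2% of 67 Hnf4dTEC Microfold cells had a UMI of Reg3g, against 81.4% of 70 Hnf4ctrl Microfold cells. Muscle cells, which should lack the gene, gave 8.86% in Hnf4dTEC and 4.88% in Hnf4ctrl, at medians of 18551 and 19252 UMIs per cell before thinning, against 11416 and 13940 in Microfold cells.

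Over all cells Reg3g had 781, 816, 781 and 523 CPM in Hnf4dTEC samples, against 1183, 1597 and 1679 CPM in Hnf4ctrl samples. No Hnf4dTEC sample came near the lowest Hnf4ctrl sample. The means were 725 ± 136 and 1486 ± 266 CPM (SD, n = 4 and n = 3), with a log2 fold change of -1.02 ± 0.18 that missed the threshold (edgeR adjusted p = 0.133). It passed with DESeq2 (1.97e-05) and with classes weighted to 1 common mix in limma (0.0255). That mix held only classes with at least 10 cells in every sample, and Tuft cells had 47.5% of its weight. Microfold, Entero-hepato, Klk-rich, Muscle and Ionocyte cells were not in it. The share of cells with a UMI, thinned to 5000 UMIs, was 19.1, 19.3, 20.4 and 20.7% in Hnf4dTEC samples, against 21.8, 24.5 and 30.4% in Hnf4ctrl samples. A two-sided exact permutation test gave p = 0.0286 for the mean shares of 19.9% and 25.6%, the smallest value that the 35 splits of 7 samples allow. Without thinning the mean shares were 35.6% and 39.0% (exact permutation p = 0.571). Of 8 such tests, 1 per gene, none passed adjustment over the 8.

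In Tuft cells, the most numerous class, Reg3g had 30.1, 50.9, 21.3 and 28.5 CPM in Hnf4dTEC samples, against 45.7, 149 and 81.3 CPM in Hnf4ctrl samples (edgeR log2 fold change -1.49 ± 0.35, adjusted p = 0.211). Its thinned share in Tuft cells was 9.69% in Hnf4dTEC and 13.2% in Hnf4ctrl, and that in Muscle cells was 8.86% and 4.88%. The Muscle shares rest on few cells, 79 and 42 before thinning. Their medians were 18551 and 19252 UMIs per cell, against 12316 and 12031 in Tuft cells. They therefore do not fix the background of Tuft cells in either genotype. In Aire-adjacent cells Reg3g had 280.2, 371, 245 and 116 CPM in Hnf4dTEC samples, against 4119, 3192 and 377 CPM in Hnf4ctrl samples. There 2 of the 3 Hnf4ctrl samples stood far above all others, and the log2 fold change of -3.34 ± 0.62 missed the threshold with edgeR (adjusted p = 0.157) and passed with DESeq2 (0.0273), which called 0.0814% of 24573 genes lower there. In Neuroendocrine cells it had 694, 2388, 678 and 236 CPM in Hnf4dTEC samples, against 2161, 2434 and 1686 CPM in Hnf4ctrl samples, which overlapped (edgeR log2 fold change -1.04 ± 0.54, adjusted p = 0.669). In TA, Immature and Transitional cells the log2 fold changes of Reg3g were 0.07, 0.05 and 0.55, and none passed.

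Reg3b and Reg3a lie in the same cluster of Reg genes as Reg3g. Reg3b encodes a lectin that in mice acts on Gram-negative bacteria, and human REG3A is an antibacterial lectin of the gut. On mm10, by GENCODE M21, Reg3b spans 78370657 to 78373466 of chromosome 6 and Reg3a spans 78380709 to 78383827, both on the plus strand. Reg3g spans 78466269 to 78468872 on the minus strand, and Reg3d, Reg2 and Reg1 lie between them. All are protein-coding genes. The 250 bases before the annotated start of each (RefSeq, GRCm38.p6, strand of the gene) are shown, with that of Lgals4 for contrast, because the 3 lectin genes are similar in sequence yet had different levels in these cells. Capitals mark TATAAAA within the last 60 bases before the start, where 1.2% of 32851 promoter windows of RefSeq hold it.
Reg3g (chr6:78468875-78469124, minus strand): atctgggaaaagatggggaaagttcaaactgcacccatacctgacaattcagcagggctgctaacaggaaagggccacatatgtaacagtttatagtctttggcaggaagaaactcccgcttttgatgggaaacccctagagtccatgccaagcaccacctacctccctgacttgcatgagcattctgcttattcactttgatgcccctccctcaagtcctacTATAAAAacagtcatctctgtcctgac
Reg3b (chr6:78370635-78370884, plus strand): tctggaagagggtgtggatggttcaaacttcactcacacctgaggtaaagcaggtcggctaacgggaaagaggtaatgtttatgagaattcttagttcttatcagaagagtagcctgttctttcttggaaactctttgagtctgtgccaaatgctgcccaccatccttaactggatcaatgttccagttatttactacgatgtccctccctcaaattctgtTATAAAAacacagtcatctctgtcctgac
Reg3a (chr6:78380459-78380708, plus strand): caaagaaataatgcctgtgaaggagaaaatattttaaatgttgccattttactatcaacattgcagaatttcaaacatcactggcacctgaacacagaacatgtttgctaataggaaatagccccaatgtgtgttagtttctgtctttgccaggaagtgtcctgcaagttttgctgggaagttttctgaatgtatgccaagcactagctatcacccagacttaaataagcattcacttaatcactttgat
Lgals4 (chr7:28833544-28833793, plus strand): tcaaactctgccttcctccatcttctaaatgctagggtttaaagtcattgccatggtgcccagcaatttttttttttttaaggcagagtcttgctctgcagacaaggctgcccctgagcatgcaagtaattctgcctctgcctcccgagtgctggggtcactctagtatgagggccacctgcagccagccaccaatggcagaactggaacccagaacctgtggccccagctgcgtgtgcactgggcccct
TATAAAA began 27 bases before the start of Reg3g and 29 bases before that of Reg3b, and the other 2 windows do not hold it there. The Reg3a window ends with the letters tcactttgat, which in the Reg3g window lie before TATAAAA. It may thus stop short of that position and does not show whether Reg3a lacks TATAAAA. The windows of Reg3g and Reg3b had the same base at 173 of 247 aligned positions (70%). Those of Reg3g and Reg3a had it at 143 of 199 (71.9%) and those of Reg3b and Reg3a at 137 of 196 (69.9%). The pairs with Reg3a thus aligned over fewer bases, so its window may not cover the same stretch and these shares do not rank the pairs. The longest stretch shared by 2 of the transcripts was 35 bases, between Reg3g and Reg3b. The motifs CAAAGTCCA and CAAAGNCCA, letters taken for HNF4 sites, and AGGTCA repeated with 1 base between its copies were searched on both strands. The first is contained in the second. None occurred in any of the 9 windows of 300 bases of the 8 genes, against 0.475%, 1.98% and 0.0396% of all windows. That says only that these letters are not in these windows.

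Reg3b came from few cells. A UMI was found in 51 Hnf4dTEC cells and in 51 Hnf4ctrl cells, and 6 and 12 of them held at least 10 UMIs. Over all cells Reg3b had 88.4, 2.33, 0.485 and 3.93 CPM in Hnf4dTEC samples, against 0.592, 32.6 and 11.6 CPM in Hnf4ctrl samples. The groups overlapped throughout, and Hnf4dTEC sample 1 stood above all others (edgeR log2 fold change 0.68 ± 1.57, adjusted p = 0.996; -2.72 without that sample). Of the 2218 UMIs in Hnf4dTEC, 1997 (90.0%) came from 1 Entero-hepato cell of sample 1, a class named for gut and liver genes. That cell also held 1300 UMIs of Reg3g, 43 of Reg3a, 224 of Lypd8 and 112 of Lgals4.

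Only 3 Hnf4dTEC cells were Entero-hepato, of 5890, against 82 of 3295 Hnf4ctrl cells. The 3 cells had 29478, 31385 and 34881 UMIs, where the median Hnf4ctrl Entero-hepato cell had 12910. The share of their hash UMIs on their own sample's tag was 77.1, 61.9 and 53.2%, against a median of 88.9% over all cells, and in all 3 the next tag was that of Hnf4ctrl sample 3, with 530, 524 and 561 UMIs against a median of 37. Scrublet, a doublet caller, marked none of the 3. A strong second tag (100 UMIs or more, and 10% or more of the cell's hash UMIs) was found in 319 Hnf4dTEC cells, 263 of them with the tag of Hnf4ctrl sample 3, and in 119 Hnf4ctrl cells, 73 of them with that tag. Without these cells Reg3b had 3.58, 2.46, 0.425 and 4.12 CPM in Hnf4dTEC samples, against 0.523, 33.4 and 11.9 CPM in Hnf4ctrl samples, and its log2 fold change was -2.51 ± 1.00 (edgeR adjusted p = 0.715). Without them 2 of the 8 genes passed over all cells, both lower: Pglyrp1 (-1.05, adjusted p = 0.0281) and Lgals4 (-3.53, adjusted p = 0.0499), where 0.256% of 20732 genes fell. The same 6 pairs of gene and class passed within classes.

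Outside Entero-hepato cells Reg3b and Reg3a were at their highest in Aire-expressing cells, the class that makes the regulator Aire. Reg3b had 41.7, 23.1, 0.88 and 21.4 CPM there in Hnf4dTEC samples, against 2.02, 123 and 25.5 CPM in Hnf4ctrl samples, and the groups overlapped (edgeR log2 fold change -1.24 ± 1.01, adjusted p = 1). Reg3a had 21.1, 3.04, 2.2 and 7.52 CPM there in Hnf4dTEC samples, against 0, 40.4 and 1.54 CPM in Hnf4ctrl samples, and these groups overlapped too. Reg3a had 125 UMIs in 17 Hnf4dTEC cells and 78 UMIs in 12 Hnf4ctrl cells in all, so its levels rest on a handful of cells. Over all cells its log2 fold change was -0.25 ± 1.10 (edgeR adjusted p = 1). Of the other Reg genes of the cluster, Reg1 had 1421 and Reg2 130 UMIs in Hnf4dTEC cells, against 1044 and 142 UMIs in Hnf4ctrl cells.

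Lgals4, a galectin of gut epithelium that binds sugar chains of glycoproteins and glycolipids, reached 10 UMIs in 5 Hnf4dTEC cells and in 52 Hnf4ctrl cells. It had 8.08, 0, 1.48 and 5.71 CPM in Secretory cells of Hnf4dTEC samples, against 31.6, 164 and 250 CPM in those of Hnf4ctrl samples. Every Hnf4ctrl sample was above every Hnf4dTEC sample, though the 3 Hnf4ctrl samples spanned a wide range. The UMIs came from 16 of 355 Hnf4dTEC cells, each with 1 or 2, and from 24 of 135 Hnf4ctrl cells, of which 1 held 103. The fitted log2 fold change was -5.34 ± 0.64 (edgeR adjusted p = 0.0203), for a gene that passed the filter through Hnf4ctrl samples alone, and the call was lost without Hnf4ctrl sample 2 (0.07) or 3 (0.0855) and without Hnf4dTEC sample 3 (0.0982) or 4 (0.0996). In Secretory cells the 6 Keratinocyte markers, none at 0, summed to 343 to 489.97 CPM in Hnf4dTEC samples, against 241 to 318 CPM in Hnf4ctrl samples, and their part in this result was not tested.

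In Neuroendocrine cells Lgals4 had 2.51, 3.8, 3.93 and 4.91 CPM in Hnf4dTEC samples, against 8.32, 47.5 and 39.8 CPM in Hnf4ctrl samples. The lowest Hnf4ctrl sample was near the Hnf4dTEC samples and the other 2 were far above them. The log2 fold change was -3.13 ± 0.47 (edgeR adjusted p = 0.0221), again for a gene that passed the filter through Hnf4ctrl samples alone, with the adjusted p between 0.0539 and 0.112 without Hnf4ctrl sample 2 or 3 or Hnf4dTEC sample 1, 2 or 3. In Keratinocyte cells it had 6.73, 6.99, 7.05 and 23.3 CPM in Hnf4dTEC samples, against 41.1, 67.6 and 101 CPM in Hnf4ctrl samples. Those groups were apart as well, but the log2 fold change of -2.75 ± 0.43 missed the threshold with edgeR (adjusted p = 0.065) and passed with DESeq2 (2.16e-05), which called 0.107% of 26156 genes lower there. Of 11267 genes tested in Keratinocyte cells, edgeR called 0.0621% lower, and 0 of the 6 genes tested among the 8.

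In Microfold cells Lgals4 had 3 UMIs in 2 of 76 Hnf4dTEC cells and 212 UMIs in 37 of 76 Hnf4ctrl cells. Per UMI of the class, that is a ratio of 0.016 (exact 95% interval 0.00327 to 0.0474, counting error only). By sample it had 0, 6.99 and 0 CPM in Hnf4dTEC samples 1 to 3 and 12.1 CPM in the 8 cells of sample 4, against 30.0, 104 and 332 CPM in Hnf4ctrl samples. All Hnf4dTEC samples were below all Hnf4ctrl samples. The filter on low counts left Lgals4 out of edgeR's fit in this class, and DESeq2, which tests it, gave an adjusted p of 0.0228. DESeq2 called 112 of 19436 genes with any UMI lower there (0.576%), and edgeR called 109 of the 4656 genes past its filter lower. The genotype effect was more negative than in all other cells (edgeR log2 difference -3.34 ± 0.83, adjusted p = 0.018), but not without Hnf4ctrl sample 3 (0.369), Hnf4dTEC sample 1 (0.43) or Hnf4dTEC sample 3 (0.0694).

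In Entero-hepato cells of Hnf4ctrl samples 2 and 3 Lgals4 had 846 and 948 CPM, its highest level of any class, and these 2.49% of Hnf4ctrl cells gave 48.4% of its Hnf4ctrl UMIs. In Immature cells it ran the other way, with 18 UMIs in 17 of 224 Hnf4dTEC cells and 2 UMIs in 2 of 130 Hnf4ctrl cells, a ratio of 5.46 (exact 95% interval 1.31 to 48.6). There it had 4.86, 10.95, 7.13 and 13.96 CPM in Hnf4dTEC samples, against 3.35, 0 and 1.83 CPM in Hnf4ctrl samples. The genotype effect in Immature cells minus that in other cells was 5.45 ± 0.88 (edgeR adjusted p = 5.83e-05), and it stayed under 0.05 without any 1 sample. Lgals4 in Immature cells alone did not pass the filter on low counts. Thinned shares there were 4.59% of 196 Hnf4dTEC cells and 1.83% of 109 Hnf4ctrl cells, against 0 of 79 and 0 of 41 Muscle cells, which allow shares of up to 4.56% and 8.6% (exact 95% bound).

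Over all cells Lgals4 had 9.79, 3.16, 3.29 and 3.93 CPM in Hnf4dTEC samples, against 10.96, 35.8 and 59.6 CPM in Hnf4ctrl samples. The lowest Hnf4ctrl sample was just above the highest Hnf4dTEC sample, which is sample 1 with the Entero-hepato cell described above. The log2 fold change was -2.81 ± 0.59 (edgeR adjusted p = 0.214). The thinned share of cells with a UMI was 1.77, 1.24, 1.43 and 2.44% in Hnf4dTEC samples, against 2.72, 5 and 7.53% in Hnf4ctrl samples, apart in all samples (exact permutation p = 0.0286). Without thinning the mean shares were 3.62% and 7.999% (exact permutation p = 0.0286).

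**Figure D3:**
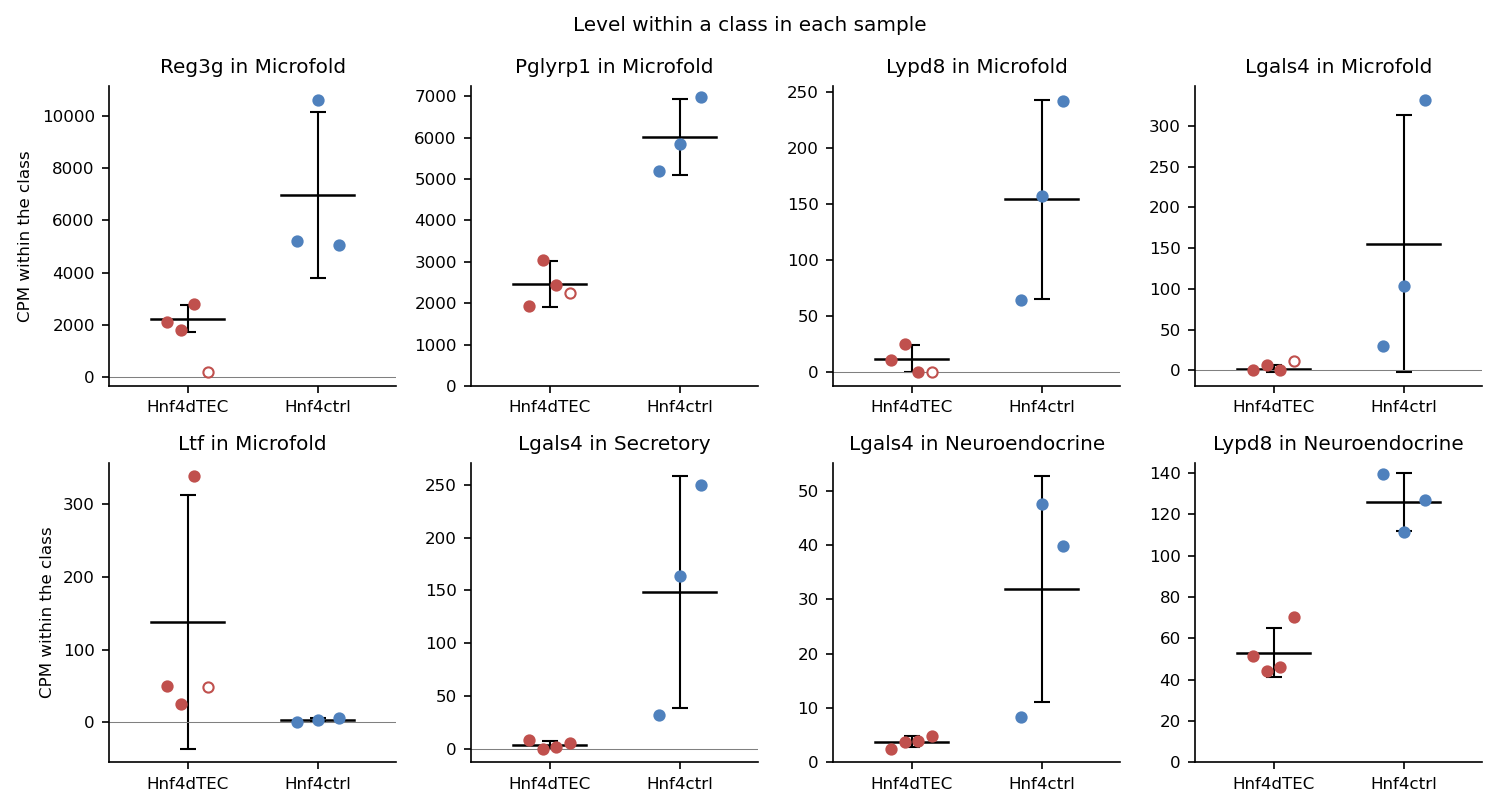
Level within a class, in CPM of that sample and class, for 8 pairs of a gene and a class, with 1 point per sample, Hnf4dTEC samples on the left and Hnf4ctrl samples on the right, and the mean with its SD. An open circle is a sample with fewer than 10 cells of the class, which entered neither the mean nor the fit, and Ltf is the gene with its Hnf4dTEC samples on the higher side.

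Lypd8 encodes a membrane-anchored protein that in mouse colon binds flagella and keeps motile bacteria out of the inner mucus. It was at its highest in Entero-hepato cells of Hnf4ctrl samples 2 and 3, with 972 and 1998 CPM, apart from every other class there. The Entero-hepato cells gave 61.7% of its UMIs in Hnf4ctrl cells. In Neuroendocrine cells Lypd8 had 51.5, 44.1, 46.4 and 70.5 CPM in Hnf4dTEC samples, against 139.7, 112 and 127 CPM in Hnf4ctrl samples. The samples of each genotype lay close together and the groups were far apart. Lypd8 fell there by 1.21 on the log2 scale (SE 0.16, edgeR adjusted p = 0.0107), which was lost only without Hnf4dTEC sample 1 (0.0549) among the 7 fits that left out a sample. A UMI was found in 130 of 448 Hnf4dTEC cells and 106 of 259 Hnf4ctrl cells, and thinned shares were 18.7% and 23.1%. Marker lists also differed between the Neuroendocrine cells of the genotypes without overlap. The 9 Entero-hepato markers, none at 0, summed to 241 to 319 CPM in Hnf4dTEC samples, against 336 to 427 CPM in Hnf4ctrl samples. The 11 neutrophil markers summed to 615 to 762 CPM, against 866 to 1016 CPM, with Elane and Retnlg at 0 in both genotypes and Csf3r at 0 in Hnf4ctrl. The 4 endothelial markers summed to 21.5 to 25.9 CPM, against 26.2 to 27.1 CPM, with Kdr at 0 in both and Cdh5 at 0 in Hnf4dTEC. Their part in the Lypd8 and Lgals4 results of this class was not tested.

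In Microfold cells Lypd8 had 10.8, 24.5 and 0 CPM in Hnf4dTEC samples 1 to 3, against 63.8, 157 and 242 CPM in Hnf4ctrl samples, and sample 4 of Hnf4dTEC had none in its 8 cells. All Hnf4ctrl samples were above all Hnf4dTEC samples. The log2 fold change was -3.81 ± 0.72 (edgeR adjusted p = 0.0228), and the filter let the gene through by its Hnf4ctrl samples alone. The values rest on 10 UMIs in 3 of 76 Hnf4dTEC cells and 190 UMIs in 28 of 76 Hnf4ctrl cells. The adjusted p was 0.0567 to 0.11 without Hnf4ctrl sample 2 or 3 or Hnf4dTEC sample 1 or 3. The difference from other cells was -1.82 ± 0.54 (adjusted p = 0.0801). In Aire-adjacent cells Lypd8 had 5.91, 3.47, 8.22 and 0 CPM in Hnf4dTEC samples, against 25.3, 170 and 75.6 CPM in Hnf4ctrl samples. These groups were apart, and the log2 fold change of -4.20 ± 0.66 missed the threshold with edgeR (adjusted p = 0.108) and passed with DESeq2 (2.46e-05). In Aire-expressing cells it had 57.2, 48.6, 51.5 and 68.0 CPM in Hnf4dTEC samples, against 0, 48.3 and 69.7 CPM in Hnf4ctrl samples, which overlapped.

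Over all cells Lypd8 had 25.1, 9.06, 11 and 17.5 CPM in Hnf4dTEC samples, against 35.4, 47.0 and 96.4 CPM in Hnf4ctrl samples, with no overlap. Its log2 fold change of -1.93 ± 0.43 missed the threshold with edgeR (adjusted p = 0.242) and passed with DESeq2 (0.000496). Without Entero-hepato cells it was -1.10 ± 0.32 (edgeR adjusted p = 0.565). The thinned share of cells with a UMI was 3.01% in Hnf4dTEC and 5.97% in Hnf4ctrl samples on average (exact permutation p = 0.0571), and 4.92% and 9.69% without thinning.

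Pglyrp1, which binds the peptidoglycan of bacterial walls, was at its highest in Microfold cells of both genotypes, apart from the next class, Secretory. In Microfold cells it had 1925, 3038 and 2449.8 CPM in Hnf4dTEC samples 1 to 3 and 2247 CPM in the 8 cells of sample 4, against 5187, 5842 and 6993 CPM in Hnf4ctrl samples. All 4 Hnf4dTEC samples were below all Hnf4ctrl samples. Pglyrp1 fell by 1.32 on the log2 scale (SE 0.23, edgeR adjusted p = 0.018), a call lost without Hnf4dTEC sample 1 (0.0796). The fall exceeded that in other cells by 1.03 (log2 difference -1.03 ± 0.23, adjusted p = 0.00654), which was lost without Hnf4dTEC sample 1 (0.11) or 3 (0.058).

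The share of Microfold cells with a UMI of Pglyrp1 was much the same, 89.6% of 67 Hnf4dTEC cells and 90.0% of 70 Hnf4ctrl cells after thinning (exact 95% intervals 79.7 to 95.7% and 80.5 to 95.9%). The cells with a UMI held on average 32.8 UMIs in Hnf4dTEC and 96.7 UMIs in Hnf4ctrl. Muscle cells gave thinned shares of 10.1% and 14.6%. Microfold cells gave 19.8% of the Pglyrp1 UMIs in Hnf4dTEC and 47.1% in Hnf4ctrl, although they were 1.29% and 2.31% of cells. In Tuft cells Pglyrp1 had a log2 fold change of -0.09 ± 0.13, and in Aire-expressing, Ciliated, TA and Transitional cells it lay between 0.11 and 0.44 with none past the threshold.

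Over all cells Pglyrp1 had 143, 135, 168 and 115 CPM in Hnf4dTEC samples, against 266, 256 and 330.1 CPM in Hnf4ctrl samples. The Hnf4ctrl samples were all well above. The means were 140.1 ± 21.9 and 284 ± 40.1 CPM (SD, n = 4 and n = 3), with a log2 fold change of -1.01 ± 0.14 and an edgeR adjusted p of 0.0573. It passed with DESeq2 (3.38e-08), with no filter on low counts (0.0229) and without the cells Scrublet marked (0.0437). Of 17 alternatives it passed in only 5, and over the 17 its log2 fold change ranged from -1.11 to -0.32. In Keratinocyte cells Pglyrp1 had 68.9, 68.5, 68.4 and 45.1 CPM in Hnf4dTEC samples, against 252, 97.1 and 211 CPM in Hnf4ctrl samples, without overlap (edgeR log2 fold change -1.61 ± 0.28, adjusted p = 0.0763; DESeq2 0.000125).

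The marker lists of classes also differed between the Microfold cells of the genotypes. The summed level of 8 Microfold markers was 12159 to 15938 CPM in Hnf4dTEC samples, against 17039 to 17664 CPM in Hnf4ctrl samples, with none of the 8 at 0. That of 9 Entero-hepato markers, Hnf4g among them, was 613 to 899 CPM, against 2642 to 2883 CPM, with Cdhr2 at 0 in Hnf4dTEC and none at 0 in Hnf4ctrl. The 7 macrophage markers summed to 343 to 805 CPM, against 420.4 to 1704 CPM, with C1qc at 0 in Hnf4ctrl. The part of these differences in the lower Reg3g, Pglyrp1, Lypd8 and Lgals4 of Microfold cells was not tested.

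Pigr, the receptor that carries polymeric IgA and IgM across epithelia, was at its highest in Klk-rich and Secretory cells of Hnf4dTEC and in Entero-hepato and Secretory cells of Hnf4ctrl. In Secretory cells it had 561, 474, 467 and 329 CPM in Hnf4dTEC samples, against 789.7, 547 and 749.8 CPM in Hnf4ctrl samples. The groups overlapped narrowly, and the log2 fold change of -0.61 ± 0.20 did not pass (edgeR adjusted p = 0.605). In Keratinocyte cells it had 68.9, 84.6, 70.5 and 62.4 CPM in Hnf4dTEC samples, against 196, 128 and 114 CPM in Hnf4ctrl samples, apart in all samples (edgeR log2 fold change -1.05 ± 0.19, adjusted p = 0.0993; DESeq2 0.00412). In Neuroendocrine cells the groups overlapped, at 258 ± 34.8 CPM in Hnf4dTEC and 301 ± 46.9 CPM in Hnf4ctrl (SD, n = 4 and n = 3). Over all cells Pigr had 69.6, 72.5, 65.0 and 46.6 CPM in Hnf4dTEC samples, against 71.9, 91.2 and 94.9 CPM in Hnf4ctrl samples, which overlapped at the lowest Hnf4ctrl sample (edgeR log2 fold change -0.43 ± 0.16, adjusted p = 0.67).

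Ltf encodes lactoferrin, an iron-binding protein of secretions such as milk and airway fluid and of neutrophil granules. It came mainly from Secretory cells, which gave 83.5% of its UMIs in Hnf4dTEC and 82.3% in Hnf4ctrl and were 6.03% and 4.1% of cells. In Secretory cells it had 1377, 1357, 1384 and 713 CPM in Hnf4dTEC samples, against 5193, 1091 and 685 CPM in Hnf4ctrl samples. Hnf4ctrl sample 1 stood far above all others and the groups overlapped (edgeR log2 fold change -0.94 ± 0.55, adjusted p = 0.822). Over all cells Ltf had 85.3, 74.2, 104 and 41.3 CPM in Hnf4dTEC samples, against 137, 57.9 and 35.3 CPM in Hnf4ctrl samples, also overlapping (0.01 ± 0.47, adjusted p = 1). The thinned share of cells with a UMI was 4.54% in Hnf4dTEC and 3.47% in Hnf4ctrl samples on average, apart in all samples (exact permutation p = 0.0571). Without thinning the means were 7.78% and 5.90% and the groups overlapped (exact permutation p = 0.0857).

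In Microfold cells Ltf was on the higher side in Hnf4dTEC, the opposite of Reg3g, Pglyrp1, Lypd8 and Lgals4. It had 50.3, 24.5 and 339 CPM in Hnf4dTEC samples 1 to 3 and 48.3 CPM in the 8 cells of sample 4, against 0, 3.35 and 5.76 CPM in Hnf4ctrl samples. The groups were apart, but 105 of the 131 Hnf4dTEC UMIs came from 1 cell of sample 3 and only 12 of 76 cells held any. Ltf was also higher in Hnf4dTEC without overlap in Aire-expressing cells (15.0 to 37.3 against 0.879 to 5.66 CPM). The same held in Tuft (7.30 to 16.5 against 3.97 to 6.37 CPM) and Ciliated cells (6.09 to 11.4 against 0 to 3.88 CPM). No gene of the 8 passed within those classes. The mean level of Ltf was lower, with overlap, in Secretory, Keratinocyte, Aire-adjacent, TA and Transitional cells. The genotype effect in Microfold cells minus that in other cells was 4.30 ± 0.71 (edgeR adjusted p = 4.87e-05), and 2.99 without Hnf4dTEC sample 3 (adjusted p = 0.0168). Thinned to 5000 UMIs, 2 of 67 Hnf4dTEC and 1 of 70 Hnf4ctrl Microfold cells had a UMI, so the thinned shares of 2.99% and 1.43% do not tell the groups apart. The filter on low counts left Ltf out of edgeR's fit within Microfold cells, and DESeq2 gave a log2 fold change of 5.26 (adjusted p = 0.000596), where it called 0.211% of genes higher. The 11 neutrophil markers, which do not include Ltf, summed to 287 to 1138 CPM in Hnf4dTEC samples, against 37.5 to 207 CPM in Hnf4ctrl samples. Of them 5 were at 0 in Hnf4dTEC and 6 in Hnf4ctrl, and the granule genes Camp, Ngp and Elane were at 0 in both. The 7 Secretory markers summed to 517 to 1117 CPM, against 199 to 528 CPM, with 1 at 0 in each genotype (Spdef in Hnf4dTEC, Muc5b in Hnf4ctrl). The part of either list in the Ltf result was not tested.

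**Figure D4:**
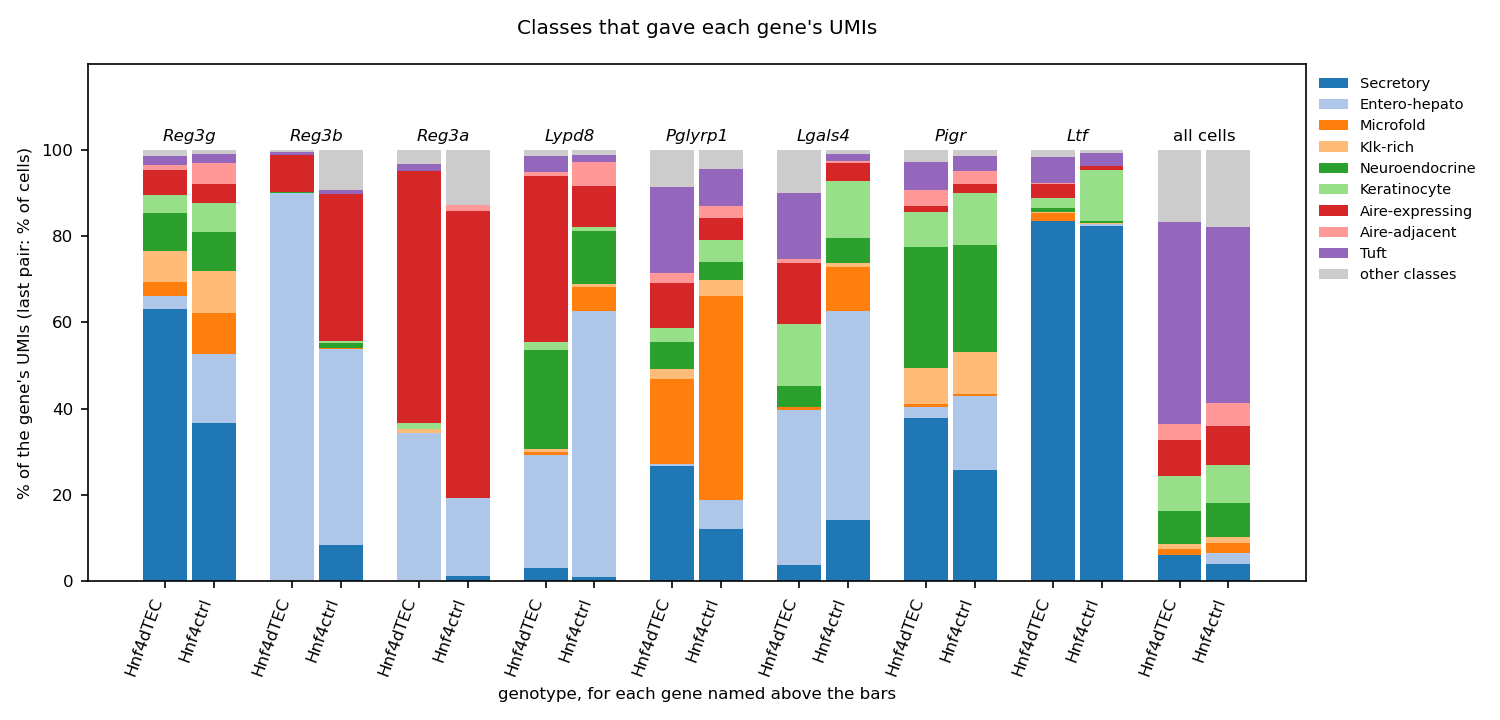
Share of each gene's UMIs that came from each class, in percent, with Hnf4dTEC left of Hnf4ctrl for each gene, and the classes' share of all cells in the last pair of bars. Secretory cells gave 63.0% of the Reg3g UMIs of Hnf4dTEC and 36.8% of those of Hnf4ctrl, and Entero-hepato cells gave 61.7% of the Lypd8 UMIs of Hnf4ctrl.

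The 8 genes thus came from different classes. Entero-hepato cells, 2.49% of Hnf4ctrl cells, gave 15.8% of the Reg3g, 45.4% of the Reg3b, 61.7% of the Lypd8, 48.4% of the Lgals4 and 17.3% of the Pigr UMIs of that genotype. These shares pool the samples, and 55 of the 82 cells were of Hnf4ctrl sample 3. Of their 321 Reg3b UMIs, 250 came from 1 cell of Hnf4ctrl sample 2. In Hnf4dTEC the 3 Entero-hepato cells gave 90.0% of the Reg3b UMIs. The class with the highest mean level was the same for each of the 8 genes in Hnf4ctrl samples alone and without the cells Scrublet marked as over all samples.

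Cells that held at least 10 UMIs of one gene often held at least 10 of another. Of 18 cells with that much Reg3b in both genotypes, 15 also had it of Reg3g (83.3%), against 7.33% of all other cells. Of 7 such Reg3a cells, 6 had it of Reg3g and 6 of Reg3b. Of 57 such Lgals4 cells, of which 5 were Hnf4dTEC and 52 Hnf4ctrl, 52.6% had it of Pglyrp1, 50.9% of Reg3g and 43.9% of Lypd8, against 4.25%, 7.21% and 0.723% of all other cells. Of 130 such Ltf cells 36.2% had it of Pglyrp1 and 33.8% of Reg3g, against 4.10% and 7.10% of all other cells. None of the 130 had it of Lypd8, Lgals4, Reg3b or Reg3a, but these were at that level in only 1.00%, 0.629%, 0.199% and 0.0773% of all other cells, so 130 cells cannot show a lower share. These shares are descriptions of cells that share 7 samples and 1 run, and deeper cells reach 10 UMIs more easily.

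**Figure D5:**
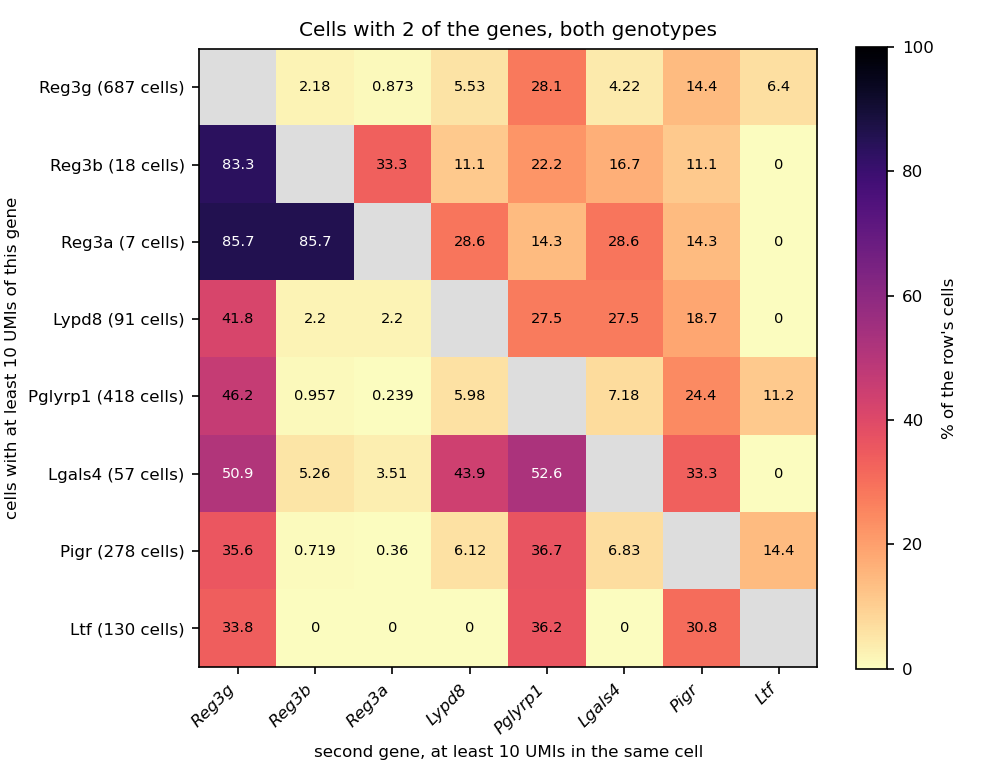
Share of the cells with at least 10 UMIs of the row's gene that also held at least 10 UMIs of the column's gene, in percent, over both genotypes. Of 18 Reg3b cells 83.3% reached 10 UMIs of Reg3g, as did 7.33% of all other cells.

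Genes with the most similar pattern were sought by Pearson's r of log2(CPM + 1) over 89 sums of a sample and class with at least 10 cells, among 16813 genes. The sums share samples and depth, so r is only a description. For Reg3g they were AW112010 (0.885), Cdh17 (0.846) and Cyp2a5 (0.834). For Pglyrp1 they were Ccl9 (0.864), Reg3g itself (0.818) and Cdh17 (0.817). For Lypd8 they were Xkr9, Btnl4 and Anxa10 (0.722 to 0.734), and for Lgals4 Btnl4, Guca2a and Cyp2c68 (0.662 to 0.673), so that Btnl4 stood near both. For Pigr they were Styk1, Chp1 and Atp2b1 (0.855 to 0.871), and for Ltf Vill, Gabrp and St3gal4 (0.796 to 0.839). For Reg3b they included Lgals2 (0.688) and Reg3a (0.673), and for Reg3a they were Col1a2, Insc and Gm31854 (0.693 to 0.701). Among the 8 genes themselves r was highest for Reg3g with Pglyrp1, at 0.818, and lowest for Reg3a with Pigr, at 0.01.

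Of 53 other genes of mucosal defence, 49 were tested over all cells and 0 passed with edgeR, with a median log2 fold change of -0.10. In Microfold cells 1 of 12 tested fell, where 2.34% of all genes did: Gp2, the bacterial uptake receptor of gut microfold cells, at 658 ± 405 CPM in Hnf4dTEC and 2676 ± 614 CPM in Hnf4ctrl (SD, n = 3 each; edgeR log2 fold change -2.06 ± 0.38, adjusted p = 0.0205). In Neuroendocrine cells 3 of 27 fell, where 0.336% of all genes did: Gp2 (-2.49, adjusted p = 0.0232), the galectin Lgals2 (-4.20, 0.00757) and the trefoil peptide Tff3 of mucus-making cells (-2.98, 0.041). Lgals2 passed the filter there through Hnf4ctrl samples alone. In Secretory cells 0 of 30 passed, where 0.0314% of all genes did. Of 26 genes, mainly receptors and signalling proteins of the cytokine and bacterial sensing pathways that induce such proteins, 25 were tested over all cells and 0 passed. In Microfold cells 1 of 11 passed, again beside 2.34% of all genes lower and through its Hnf4ctrl samples alone: Muc13, itself a membrane mucin and not a signalling protein, at 13.7 ± 9.37 CPM in Hnf4dTEC and 304 ± 110 CPM in Hnf4ctrl (SD, n = 3 each; edgeR log2 fold change -4.50 ± 0.46, adjusted p = 0.00197).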

How the data were processed

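Cells came from 1 droplet run of hash-tagged mTEClo. The authors deposited raw UMI counts per gene and barcode, and a cell table with the sample (by hash tag) and class of 9185 of the 18089 barcodes. Cell Ranger 6.1.0 and Seurat 4.0.2 are named in the submitters' processing notes, and the header of the count matrix names Cell Ranger 7.0.0. The build was mm10, per the labels. No column of the table was left unused, other than barcodes without an entry, which entered no comparison.

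UMI counts were summed per sample, and per sample and class with at least 10 cells, and tested with edgeR 4.0.16 (filterByExpr, TMM, quasi-likelihood) in R 4.3.3, with Benjamini-Hochberg adjustment over all genes tested and a threshold of 0.05. The tests were tried on simulated counts first. The difference between a class and all other cells used both sums of each sample with the sample as a term. Alternatives were DESeq2 1.42.0, other scaling, no filter, other cell minimums, samples left out, a replicate block and, added after seeing the data, removal of cells with a strong second hash tag. Shares of cells used counts thinned to 5000 UMIs per cell, which left out 319 Hnf4dTEC and 192 Hnf4ctrl cells, and exact permutation tests over samples. Intervals cover counting error only. Scrublet (scanpy 1.11.5, Python 3.11.15) marked 184 cells, 2% of those with an entry, which stayed in. The labels do not say whether doublets had been removed. No cell barcode could be shared between libraries, since there was 1.

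Members and gene lists were chosen with earlier results of these data known. All 8 members were described. Other genes were named where they passed the threshold in a listed comparison or were among the 3 most like a member by Pearson's r. Muc13, of the pathway list, and the other Reg genes were named after their values were seen. One gene that this rule names is not reported here.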

Additional observations from a re-analysis of the deposited data

Results flagged for a closer look

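One Hnf4dTEC sample lay far from the other 3 in the level over all cells for 3 of the 8 genes. The gap to the nearest sample, as a share of the range of the 4 Hnf4dTEC samples, was 0.88 for Reg3g (sample 4 low), 0.961 for Reg3b (sample 1 high) and 0.883 for Lgals4 (sample 1 high), each above Dixon's critical value for 4 samples. Such gaps arise by chance in about 1 in 20 groups, and 11 groups of 4 were examined.

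The genotype effect differed between a class and all other cells in 5 tests. The log2 difference was -0.855 for Reg3g, -1.03 for Pglyrp1, -3.34 for Lgals4 and 4.3 for Ltf in Microfold cells, and 5.45 for Lgals4 in Immature cells.

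The 8904 barcodes with no sample or class held 78.5 CPM of Reg3b, 1.92 CPM of Reg3a and 77 CPM of Ltf. Pooled annotated cells held 26.1, 1.47 and 76.2 CPM in Hnf4dTEC, and 14.7, 1.62 and 62.4 CPM in Hnf4ctrl. These barcodes have no genotype and entered no comparison.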

How the results depend on the processing

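Over all cells 0 of the 8 genes passed with edgeR. That count was 4 with DESeq2, 1 with no filter on low counts, 1 with the replicate block, 1 without the cells Scrublet marked, 1 with classes weighted to 1 mix, and 2 without cells with a strong second hash tag, an alternative chosen after seeing the data. It was 0 to 0 with each sample left out. The common mix held no Microfold, Entero-hepato, Klk-rich, Muscle or Ionocyte cells. The 6 calls within classes became 3 with at least 20 cells per sample, 13 with DESeq2 and 24 with no filter, and ranged from 1 to 8 with a sample left out (1 without Hnf4dTEC sample 1, 3 without Hnf4dTEC sample 3). With no filter the calls over all genes rose too. In Microfold cells they went from 141 of 4656 to 602 of 19436. In Keratinocyte cells they went from 9 of 11267 to 326 of 26156, and in Aire-expressing cells they stayed at 0. DESeq2 called 153 of 19436 genes with any UMI in Microfold and 36 of 26156 in Keratinocyte cells. The 5 differences between a class and other cells became 30 with no filter and ranged from 3 to 10 with a sample left out (10 without Hnf4ctrl sample 1, 3 without Hnf4dTEC sample 3). Over all genes the differences called rose with no filter from 1 to 162 in Aire-adjacent, 7 to 297 in Neuroendocrine and 227 to 256 in Microfold cells. With at least 20 cells per sample Microfold cells could not be fitted, since Hnf4ctrl sample 1 had 18 of them. The Neuroendocrine and Secretory fits were unchanged by that minimum. The cause of the other changes was not tested. Over all cells the log2 fold changes of Reg3b, Reg3a and Ltf, none of which passed, changed sign. Reg3b ranged from -2.72 (without Hnf4dTEC sample 1) to 1.82 (without Hnf4ctrl sample 2), and was -1.28 with the replicate block, -1.55 without Entero-hepato cells, -2.51 without second-tag cells and -0.93 in the common mix. Reg3a ranged from -1.27 (without Hnf4dTEC sample 1) to 0.95 (without Hnf4ctrl sample 2), and was 0.07 without Hnf4dTEC sample 2 or 3. Ltf ranged from -0.34 (without Hnf4ctrl sample 3) to 0.74 (without Hnf4ctrl sample 1), and was -0.15 without Hnf4ctrl sample 2, -0.05 and -0.18 without Hnf4dTEC sample 1 and 3, -0.0026 with DESeq2, -0.084 without Scrublet's cells, -3.6e-05 without Entero-hepato, -0.083 without Tuft and -0.030 without Microfold cells, -0.016 without second-tag cells and -0.47 in the common mix.

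Replicate numbers did not pair the samples: same-numbered samples correlated at 0.441, 0.165 and -0.0646 in their deviations over 12445 genes. Samples with unlike numbers ran from -0.618 (Hnf4dTEC sample 4 with Hnf4ctrl sample 1) to 0.672 (Hnf4dTEC sample 4 with Hnf4ctrl sample 3). The main fits held no term for such likeness across genotypes, and its part in the results was not tested. With the replicate block Pglyrp1 passed over all cells (-0.92, adjusted p = 0.0394), and 4 pairs within classes did, but not Reg3g (0.0557) or Lypd8 (0.0552) in Microfold cells or Lgals4 in Secretory cells (0.157). The filter on low counts left Lgals4 and Ltf out of the Microfold fit and Lgals4 out of the Immature fit, and Entero-hepato cells, of which Hnf4dTEC had 3, were not tested.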
